A study of Homo sapiens with 44 samples.

Results

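TGF-β1 and TNF were compared directly in human colon fibroblasts. The 4 libraries titled TGFB1 were set against the 4 titled TNF, chosen by title alone, which makes 8 of the 44 libraries of the series. The series is bulk RNA-seq of Ccd-18Co, an established fibroblast line of the human colon, left without cytokine or given 1 of 10 cytokines, in 11 groups of 4 libraries. Cells at passage 20 or below were plated in 48-well format, kept without serum for 72 h and then given TGFB1 or TNF at 10 ng/ml for 24 h in serum-free medium. The 4 unstimulated libraries, cultured the same way with no cytokine added, served as the baseline. As every library came from 1 cell line, the values describe that line.

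TGF-β1 binds a pair of receptor kinases that phosphorylate SMAD2 and SMAD3, which enter the nucleus with SMAD4. In gut fibroblasts it is known for the myofibroblast program of contractile proteins, fibronectin and collagen, and for the fibrosis of chronic intestinal inflammation. TNF acts through TNFRSF1A and the IκB kinases, which free NF-κB to enter the nucleus, and is known in the same cells for chemokines that draw neutrophils and monocytes and for matrix-degrading proteases.

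The deposited counts summed to 825001 to 1470192 per TGF-β1 library and to 1254254 to 1815955 per TNF library, so these were shallow libraries, with a median of 24 and 31 counts per tested gene. Values below are CPM, counts scaled by TMM to a common library total, and 3 counts in 1 library amount to 1.61 to 3.19 CPM in these 8 libraries. Of 40663 genes, 9513 had enough counts to be tested. Rank correlations of whole libraries were 0.874 to 0.916 within TGF-β1, 0.894 to 0.927 within TNF and 0.852 to 0.887 between them. All 10 fibroblast markers were detected in both groups, at a summed 25795 to 30500 CPM with TGF-β1 and 21354 to 27641 CPM with TNF. EPCAM, CDX2 and KRT20 of the 8 epithelial markers, CDH5 and KDR of the 5 endothelial, CD3E and CD14 of the 7 immune, and SOX10 of the 5 glial and neuronal markers were at 0 in all 8 libraries, and no list of another cell type summed above 30.8 CPM in any of them. The epithelial list summed to 10.3 to 30.8 CPM with TGF-β1 and 7.06 to 17.3 CPM with TNF. Of its 2 members with enough counts to test, KRT18, a keratin, was higher with TGF-β1, at 8.58, 13.8, 11.8 and 6.60 CPM against 2.12, 4.31, 1.5 and 2.14 CPM (2.00 ± 0.59, adjusted p = 0.0284), and did not pass without TGF-β1 library 2 or 3 or TNF library 1, 3 or 4 (adjusted p up to 0.0975).

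Of the matrix glycoprotein, contractile and TGF-β pathway genes that passed the test, most were higher with TGF-β1 (9 against 1 of 22 tested, 5 against 0 of 18 and 5 against 2 of 24), and those that passed among neutrophil-attracting chemokines (6 of 6 tested), NF-κB subunits and feedback genes (8 of 16) and MHC class I presentation genes (8 of 18) were all higher with TNF. A gene was called where edgeR's quasi-likelihood test gave a Benjamini-Hochberg adjusted p under 0.05 and the absolute log2 fold change exceeded 1.5. By that rule 120 genes were higher with TGF-β1, 1.26% of those tested, and 140 were higher with TNF, 1.47%. At an adjusted p under 0.05 alone the counts were 288 (3.03%) and 304 (3.2%). The 4 values of each group did not overlap for 96 of the 120 and 127 of the 140. The calls select genes with a large difference, so these counts are not separate evidence. The share over all tested genes is not given here. Throughout, a log2 fold change is TGF-β1 minus TNF unless a baseline is named, so that a negative value is higher with TNF, and ± is its standard error. In bulk libraries, less RNA per cell and fewer cells of a kind cannot be told apart.

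The unstimulated libraries place each difference on one or both arms. Against them TGF-β1 raised 61 genes (0.641% of those tested) and lowered 101 (1.06%), and TNF raised 176 (1.85%) and lowered 223 (2.34%). Both arms share these 4 controls, and without unstimulated library 2 the 101 became 66. Of the 120 genes higher with TGF-β1, 20 were called raised by TGF-β1 and 59 called lowered by TNF, with 2 counted in both. Of the 140 higher with TNF, 69 were called raised by TNF and 24 called lowered by TGF-β1, with 1 counted in both. A further 43 and 48 were called on neither arm, though TGF-β1 and TNF differed.

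**Figure D1:**
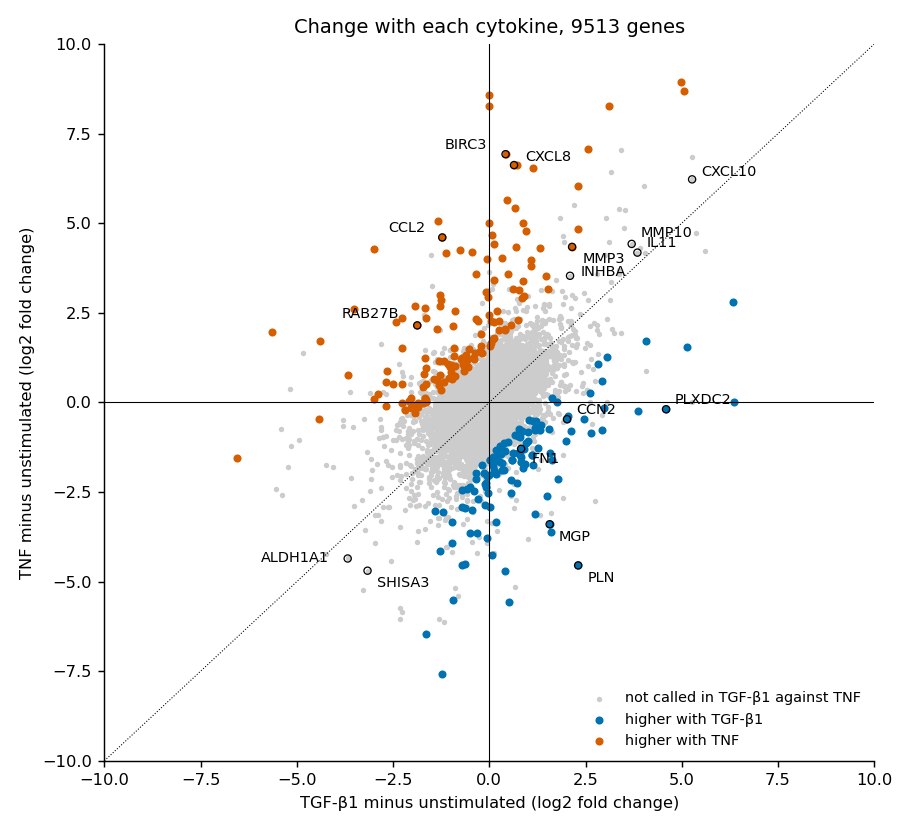
Log2 fold change with TGF-β1 (horizontal) and with TNF (vertical), each against the same 4 unstimulated libraries, for the 9513 genes tested. Blue points are the 120 genes called higher with TGF-β1 than with TNF, orange points the 140 called higher with TNF, grey points the rest; the dotted line marks equal change on both axes, and the named genes are outlined.

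Leading genes in both directions were picked among called genes whose groups did not overlap. The separation stated for each of them is therefore not separate evidence. MGP, ANOS1 and PLXDC2 ranked high among the genes called higher with TGF-β1. MGP, matrix Gla protein, an inhibitor of calcification (chr12:14880864-14885857, minus strand), stood at 88.9, 74.4, 75.3 and 62.4 CPM in TGF-β1 libraries 1 to 4 and at 3.53, 5.17, 0.75 and 0.536 CPM in TNF libraries 1 to 4. Every TGF-β1 value was far above every TNF value (4.97 ± 0.48, adjusted p = 1.34e-10). The unstimulated libraries, at 15.2, 15.3, 33.8 and 37.6 CPM, lay between them. ANOS1, the cell-adhesion matrix protein anosmin-1, read 81.1, 64.9, 36.3 and 87.3 CPM with TGF-β1 and 7.77, 0.861, 1.5 and 4.82 CPM with TNF. It, too, was separated without overlap (4.09 ± 0.53, adjusted p = 2.46e-07), with unstimulated cells between at 17.6, 31.3, 14.1 and 33.5 CPM. PLXDC2, a transmembrane plexin-domain protein (chr10:19816239-20289856, plus strand), was near the detection limit except after TGF-β1: 21.8, 28.7, 20.0 and 27.2 CPM, against 0.706, 0, 0 and 2.14 CPM with TNF and 1.47, 1.46, 0.704 and 0 CPM unstimulated. Its difference lay on the TGF-β1 arm (4.78 ± 0.97, adjusted p = 0.000689). Group means of PLXDC2 over the other 8 cytokines ran from 0.292 CPM with IL1B to 6.81 CPM with IFNG.

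For other leading genes the TNF libraries were near the detection limit. FGF14, an intracellular member of the fibroblast growth factor family, measured 32.8, 25.5, 4.54 and 12.5 CPM with TGF-β1, 0.706, 0.861, 1.5 and 0 CPM with TNF and 41.6, 73.6, 8.44 and 20.5 CPM unstimulated. The TNF values were the low ones (4.58 ± 0.85, adjusted p = 0.000188; TNF against unstimulated -5.51, adjusted p = 3.78e-06). KIF26B, a kinesin-family protein, had 36.7, 8.51, 4.54 and 27.2 CPM with TGF-β1, spread widely between libraries, and 2.12, 0, 1.5 and 0 CPM with TNF. Its groups did not overlap (4.35 ± 0.71, adjusted p = 2.71e-05). SCG2, the neuroendocrine secretory protein secretogranin, was at 22.6, 27.6, 13.6 and 30.1 CPM against 1.41, 3.44, 0 and 2.14 CPM (3.69 ± 1.11, adjusted p = 0.0317), and BHLHE40, a transcriptional repressor, at 7.80, 25.5, 15.4 and 8.07 CPM against 1.41, 0, 0.75 and 1.07 CPM (3.93 ± 1.00, adjusted p = 0.00817). Both differed directly while neither arm alone passed (adjusted p = 0.0904 and 0.752 for SCG2, and 0.235 and 0.192 for BHLHE40). SCG2 did not pass without TGF-β1 library 1, 2 or 4 or any 1 TNF library (adjusted p up to 0.121). Of 4 called genes at 0 in all TNF libraries, the 3 most abundant with TGF-β1 were RSAD2, PDE1A and PCK2. Against a floor of 3 counts per TNF library they were at least 3.27-fold, 3.21-fold and 2.70-fold higher with TGF-β1.

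BIRC3, CXCL5, BCL2A1 and C15orf48 ranked high among the genes called higher with TNF. BIRC3, the ubiquitin ligase cIAP2 of the TNF receptor complex (chr11:102317484-102339403, plus strand), stood at 4.68, 4.25, 16.3 and 11.7 CPM with TGF-β1 and 724, 948, 712 and 1038 CPM with TNF. All TNF values were high and none came near the other groups (-6.50 ± 0.60, adjusted p = 5.36e-11). The unstimulated libraries were low as well, at 2.45, 1.46, 0.704 and 23.9 CPM. CXCL5, a neutrophil attractant (chr4:73995642-73998677, minus strand), read 3.90, 6.38, 0.907 and 11.0 CPM with TGF-β1 and 357, 399.6, 434 and 724 CPM with TNF, again without overlap (-6.37 ± 0.60, adjusted p = 8.75e-11). BCL2A1, an anti-apoptotic BCL2 relative, was at 1.56, 2.13, 0 and 3.67 CPM and 67.8, 141, 128 and 136 CPM (-5.90 ± 0.84, adjusted p = 2.42e-06). C15orf48, a small mitochondrial protein gene, went from 2.34, 1.06, 0 and 0 CPM to a narrow 24.0, 23.3, 22.5 and 21.4 CPM (-4.61 ± 0.86, adjusted p = 0.000293). Of 6 called genes at 0 in all TGF-β1 libraries, SERPINB2, an inhibitor of urokinase, had 29.7, 26.7, 36.0 and 38.0 CPM with TNF, at least 12.5-fold higher. IL23A and TM4SF1, a tetraspanin-like membrane protein, were at least 10.0-fold and 6.44-fold higher with TNF.

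The 250 bases upstream of the start of the leading genes are shown because the transcription factors downstream of these cytokines have known recognition motifs. The windows come from the RefSeq promoter table for GRCh38.p14; no sequence is given for MGP. They are those of PLXDC2 (chr10:19816182-19816431, plus strand, upstream of the RefSeq start, which lies inside the GENCODE gene span given above), FGF14 (chr13:102402444-102402693, minus strand, the first of 4 listed windows), BIRC3 (chr11:102317234-102317483, plus strand) and CXCL5 (chr4:73998678-73998927, minus strand). Capitals mark matches to the κB consensus, the AP-1 motif TGANTCA, the SMAD motif CAGACA or the CArG box of serum response factor, on either strand.
PLXDC2: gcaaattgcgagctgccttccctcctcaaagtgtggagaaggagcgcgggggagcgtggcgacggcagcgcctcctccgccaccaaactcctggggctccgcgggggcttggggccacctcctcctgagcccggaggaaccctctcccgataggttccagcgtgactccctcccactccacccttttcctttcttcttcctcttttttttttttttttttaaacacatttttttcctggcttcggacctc
FGF14: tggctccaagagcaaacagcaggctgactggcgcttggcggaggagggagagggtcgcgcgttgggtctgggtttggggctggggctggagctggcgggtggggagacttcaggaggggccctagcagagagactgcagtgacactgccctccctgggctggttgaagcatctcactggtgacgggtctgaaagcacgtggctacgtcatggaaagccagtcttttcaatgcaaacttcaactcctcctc
BIRC3: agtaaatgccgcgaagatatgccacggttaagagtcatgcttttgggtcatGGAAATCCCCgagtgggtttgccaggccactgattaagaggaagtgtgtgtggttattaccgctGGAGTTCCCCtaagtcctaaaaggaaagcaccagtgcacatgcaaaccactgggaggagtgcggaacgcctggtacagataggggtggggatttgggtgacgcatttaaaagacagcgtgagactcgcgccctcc
CXCL5: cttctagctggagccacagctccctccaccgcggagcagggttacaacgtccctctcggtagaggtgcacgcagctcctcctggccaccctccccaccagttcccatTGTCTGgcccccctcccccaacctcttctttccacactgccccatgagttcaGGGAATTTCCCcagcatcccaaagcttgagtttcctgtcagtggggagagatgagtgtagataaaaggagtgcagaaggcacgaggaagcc

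PLXDC2 and FGF14 held no match to any of the 4 motifs. BIRC3 held 2 κB matches on the opposite strand, 199 to 190 and 135 to 126 bases before the start. CXCL5 held overlapping κB matches on both strands, 91 to 82 and 90 to 81 bases before the start, and a SMAD match on the opposite strand 143 to 138 bases before it. Over all genes with a window, a κB match was present in 12 of 95 genes called higher with TGF-β1 (12.6%) and 34 of 108 called higher with TNF (31.5%), beside 11.2% of 7824 tested genes and 9.57% of 27305 genes in the table. AP-1 matches were in 7.37% and 4.63% of the called sets (3.9% of tested genes), SMAD matches in 13.7% and 15.7% (9.74%), and CArG matches in 1.05% and 0% (1.07%). A match is a run of letters and not a bound site.

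Of 22 matrix glycoproteins and matricellular proteins tested, 9 were higher with TGF-β1 at an adjusted p under 0.05, against 3.03% of all genes, and 1 was higher with TNF, against 3.2%. Their median log2 fold change was 0.99, and the median of all 9513 genes was -0.0064. CCN2, the connective tissue growth factor secreted downstream of TGF-β (chr6:131948176-131951372, minus strand), measured 1097, 1496, 1164 and 1063 CPM with TGF-β1 and 208, 301, 175 and 177 CPM with TNF. The TGF-β1 libraries were uniformly high (2.49 ± 0.22, adjusted p = 1.35e-11), while TNF stayed near the unstimulated 203, 273, 424 and 289.6 CPM. FN1, fibronectin (chr2:215360440-215436073, minus strand), was at 2694, 2633, 1739.5 and 1457 CPM with TGF-β1, at 501, 496, 473 and 489 CPM with TNF and at 1391, 1419, 972 and 1024 CPM unstimulated. Both cytokines moved it, in opposite directions, TGF-β1 by 0.83 (adjusted p = 0.00776; 0.0842 where only the compared groups were fitted) and TNF by -1.30 (adjusted p = 8.6e-06), leaving a direct difference of 2.12 ± 0.21 (adjusted p = 2.45e-10).

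TGFBI, a collagen-binding adhesion protein named for its induction by TGF-β (chr5:136028988-136063818, plus strand), had the smallest adjusted p of this list, at 2280.2, 2280.0, 1737 and 1551 CPM with TGF-β1 and 486, 479.7, 419 and 369 CPM with TNF (2.16 ± 0.14, adjusted p = 7.81e-16). POSTN, periostin, followed the same course, with 652, 722, 696 and 861 CPM and 191, 235, 146 and 129 CPM around an unstimulated 280.1, 465, 364 and 355 CPM (2.07 ± 0.20, adjusted p = 1.72e-10). For VCAN, the proteoglycan versican, the TGF-β1 libraries were close together, at 829.7, 798, 838 and 823 CPM, and the TNF libraries lay far lower, at 344, 258, 307 and 337 CPM (1.40 ± 0.14, adjusted p = 2.58e-10). ASPN, the collagen-binding proteoglycan asporin, differed on the TNF arm: 99.8, 93.6, 65.3 and 91.7 CPM with TGF-β1, 16.9, 0, 4.50 and 2.14 CPM with TNF and 165, 204, 71.1 and 102 CPM unstimulated (3.87 ± 0.57, adjusted p = 3.22e-06). FBLN5, SPARC and THBS1 made up the 9, with log2 fold changes of 1.55, 0.93 and 1.05, and THBS1 did not pass without TGF-β1 library 4 (adjusted p = 0.15). The 1 gene on the other side was LUM, the collagen fibril proteoglycan lumican, at 2551, 2089, 2439 and 3034 CPM with TGF-β1 and 4436, 4875, 3894 and 4584 CPM with TNF (-0.81 ± 0.15, adjusted p = 0.000121). Against unstimulated libraries, TGF-β1 lowered it (-0.58, adjusted p = 0.0116). That arm did not pass without TGF-β1 library 2 or unstimulated library 3 (adjusted p up to 0.067).

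Collagens differed less. Of 17 tested, 4 were higher with TGF-β1 and none with TNF by the same threshold, with a median log2 fold change of 0.44. TNF had 9 of the 17 below the unstimulated level and 2 above it at an adjusted p under 0.05, where 6.09% of all genes were below and 5.37% above. TGF-β1 had 3 below and 1 above, where 3.08% of all genes were below and 2.61% above. COL1A1, a chain of type I collagen, was at 9615, 6744, 7501 and 8473 CPM with TGF-β1, 4122, 5734, 2321 and 1814 CPM with TNF and 5404, 13339, 13811 and 10008 CPM unstimulated. Every TNF value was below every TGF-β1 value, and TNF library 2 lay above unstimulated library 1 (1.21 ± 0.36, adjusted p = 0.0307; TNF against unstimulated -1.61, adjusted p = 0.00165). COL4A1 of the basement membrane (0.68 ± 0.20), COL6A3 (0.47 ± 0.14) and COL11A1 also passed. COL11A1, a minor fibrillar collagen, had 41 counts in all with TGF-β1 and 1 with TNF, a ratio of 50.5 with a 95% exact counting interval of 8.58 to 2044. The count of 4 fell to 1, COL11A1 alone, without TGF-β1 library 1 or TNF library 3, and to 2 without TGF-β1 library 4, TNF library 1 or TNF library 4. Over the libraries left out, the adjusted p reached 0.139 for COL1A1, 0.118 for COL4A1 and 0.153 for COL6A3.

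Among 15 crosslinking and maturation enzymes, 2 were higher with TGF-β1 and none with TNF, around a median log2 fold change of 0.14. LOX, lysyl oxidase, which links collagen chains, read 241, 227, 192 and 280.3 CPM with TGF-β1 and 126, 157, 60.8 and 104 CPM with TNF (1.07 ± 0.28, adjusted p = 0.0108). All TNF values were the lower, and the change lay on the TNF arm (-1.46 from an unstimulated 257, 398, 304 and 268 CPM, adjusted p = 0.000215). P4HA2, a collagen prolyl hydroxylase, was the other, at 290.1, 274, 154 and 131 CPM against 108, 42.2, 134 and 113 CPM (1.09 ± 0.31, adjusted p = 0.0241). LOX did not pass without TNF library 3 (adjusted p = 0.0758) and P4HA2 without TGF-β1 library 1 or 2 or TNF library 2 (adjusted p up to 0.137), which made the count 1.

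The contractile program was higher with TGF-β1 in 5 of 18 tested genes and higher with TNF in none, at a median log2 fold change of 0.62. ACTA2, smooth-muscle alpha-actin, the marker of myofibroblasts, measured 1109, 1186, 496 and 363 CPM in TGF-β1 libraries 1 to 4, 266, 203, 133 and 91.6 CPM in TNF libraries 1 to 4 and 853, 636, 254 and 354 CPM unstimulated. All TGF-β1 values exceeded all TNF values (2.19 ± 0.39, adjusted p = 9.3e-05), but they overlapped the unstimulated range (TGF-β1 against unstimulated 0.59, adjusted p = 0.416) and TNF accounted for the arm that passed (-1.60, adjusted p = 0.00292). TAGLN, the actin-binding protein transgelin, was likewise highest in TGF-β1 libraries 1 and 2, at 855, 849, 456 and 258 CPM, against 219.6, 164, 225 and 155 CPM with TNF (1.66 ± 0.32, adjusted p = 0.00033). TPM1, tropomyosin, was raised by TGF-β1: 1609, 1584, 1242 and 1184 CPM, 733, 667, 603 and 525 CPM with TNF and 766, 916, 792 and 649 CPM unstimulated (1.15 ± 0.16, adjusted p = 9.24e-07). CALD1, caldesmon, was lowered by TNF (2236, 1948, 1713 and 1951 CPM with TGF-β1 and 1147, 1065, 943 and 1058 CPM with TNF; 0.90 ± 0.14, adjusted p = 1.73e-05). SYNPO2, an actin-bundling protein, had 33 counts with TGF-β1 and 3 with TNF, a ratio of 13.6 (95% exact counting interval 4.25 to 69.1). It did not pass without TGF-β1 library 4 or TNF library 2, 3 or 4 (adjusted p up to 0.0873).

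Within the TGF-β pathway, a receptor and a latency protein were higher with TGF-β1, and a ligand of the activin branch was higher with TNF. Of 24 tested, 5 were higher with TGF-β1 and 2 with TNF, with a median log2 fold change of 0.24. TGFBR1, the type I receptor kinase, was at 187, 228, 205 and 311 CPM with TGF-β1 and 99.6, 96.5, 75.0 and 98.0 CPM with TNF, around an unstimulated 154, 144, 142 and 139 CPM. The 2 stimulated groups did not overlap (1.33 ± 0.18, adjusted p = 6.83e-07). From baseline, the TGF-β1 arm (0.69, adjusted p = 0.0131) did not pass without TGF-β1 library 4 (adjusted p = 0.0524), nor the TNF arm (-0.65, adjusted p = 0.0123) without TNF library 3 (adjusted p = 0.0771). LTBP1, which holds latent TGF-β in the matrix, and LTBP2, of the same family, were higher with TGF-β1 by 1.09 ± 0.19 and 1.99 ± 0.36.

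TGFB2, the second TGF-β ligand, was spread widely among TGF-β1 libraries (0.78, 10.6, 4.54 and 23.5 CPM) and low with TNF (0, 2.58, 1.5 and 0 CPM). Those groups overlapped although the test passed (3.34 ± 0.86, adjusted p = 0.0088), and it did not pass without TGF-β1 library 4 or TNF library 4 (adjusted p up to 0.123). SMAD3, the receptor-activated transcription factor, went the other way, at 3.12, 9.57, 8.17 and 13.9 CPM with TGF-β1 and 29.7, 59.4, 25.5 and 42.3 CPM with TNF (-2.16 ± 0.34, adjusted p = 1.3e-05). TGF-β1 libraries were below both other groups, as the unstimulated ones had 38.7, 28.4, 21.8 and 20.5 CPM. INHBA, the activin A subunit, was raised by both cytokines and further by TNF, with 235, 186, 249 and 321 CPM, 468, 548, 684 and 981 CPM and an unstimulated 44.6, 62.7, 59.1 and 66.3 CPM (-1.43 ± 0.25, adjusted p = 8.17e-05).

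**Figure D2:**
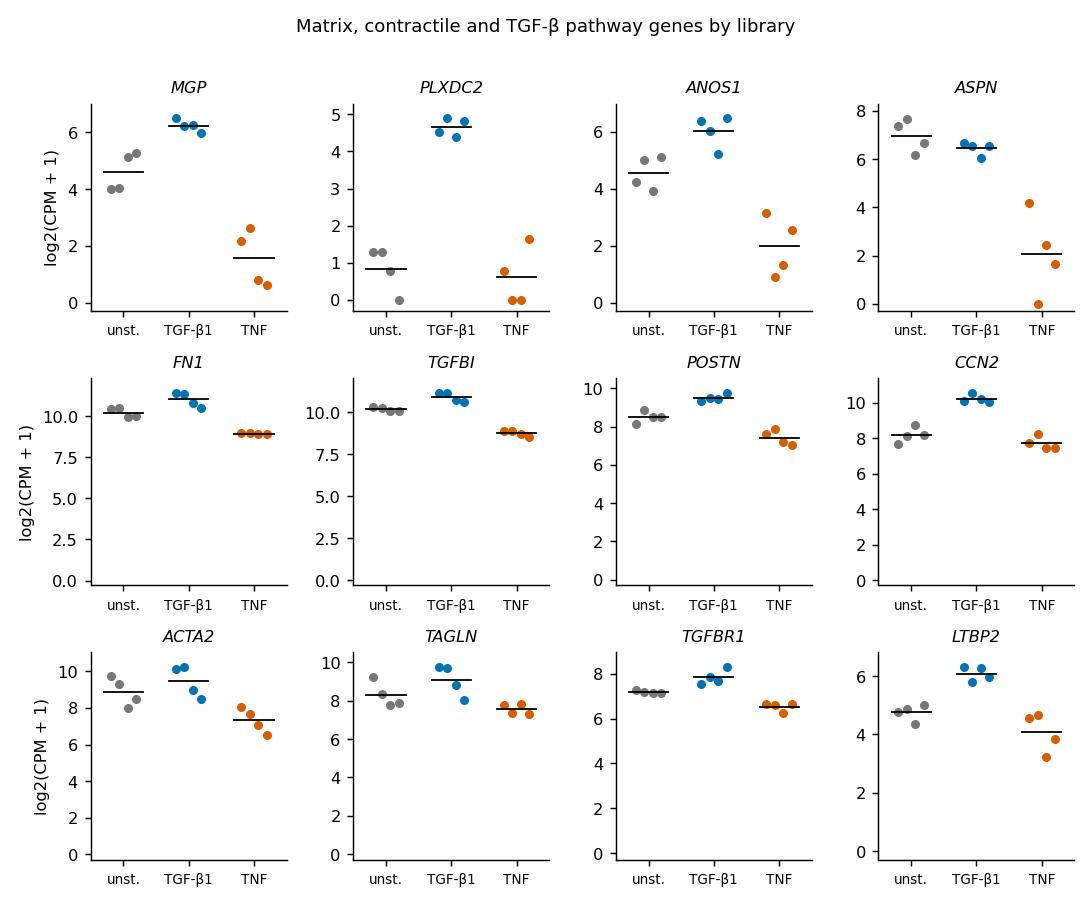
Levels of 12 matrix, contractile and TGF-β pathway genes as log2(CPM + 1) on the vertical axis of each panel, for unstimulated (grey), TGF-β1 (blue) and TNF (orange) libraries; each point is 1 library, in order 1 to 4 from left to right, and the bar is the mean of 4. In all 12 panels every TGF-β1 library lies above every TNF library, whereas for ACTA2, TAGLN and ASPN the TGF-β1 and unstimulated points overlap.

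Growth factors were divided between the cytokines. Of 29 tested factors and receptors, 5 were higher with TGF-β1 and 4 with TNF. IGF1, insulin-like growth factor 1, read 217, 217, 216 and 188 CPM with TGF-β1 and 65.7, 32.7, 57.8 and 52.5 CPM with TNF (2.00 ± 0.23, adjusted p = 1.33e-08). Its TGF-β1 values were nearly equal and close to the unstimulated 172, 125, 153 and 221 CPM, and TNF lowered it. IGFBP3 and IGFBP5, binding proteins of IGF1, were higher with TGF-β1 by 1.54 and 1.31, and VEGFA, the angiogenic factor, by 1.49 ± 0.40, which did not pass without TNF library 1 (adjusted p = 0.0739). On the TNF side, HGF, the epithelial mitogen hepatocyte growth factor, was at 172, 245, 265 and 270.1 CPM with TGF-β1 and 397, 478, 603 and 816 CPM with TNF, beside an unstimulated 407, 468, 780.3 and 648 CPM. Here TGF-β1 was the arm that moved (-1.28, adjusted p = 0.00195; -1.27 ± 0.27, adjusted p = 0.0013). FGF2 was raised by TNF, to 319.9, 452, 472 and 809.9 CPM, against 123, 136, 186 and 339 CPM with TGF-β1 (-1.39 ± 0.30, adjusted p = 0.00122). EREG, an EGF receptor ligand with 2 counts in all under TGF-β1 and 70 under TNF, and IGF2, a fetal growth factor, completed the 4. Without TGF-β1 library 1 or 2 neither passed and the count was 2. EREG reached an adjusted p of 0.0709 and IGF2 of 0.166 with 1 library left out, EREG also without TNF library 4 and IGF2 without any library but TNF library 4.

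All 6 neutrophil-attracting CXC chemokines were higher with TNF, at a median log2 fold change of -4.66. CXCL8, interleukin-8 (chr4:73740519-73743716, plus strand), reached 12194, 16719, 15005 and 23009 CPM in TNF libraries 1 to 4, against 103, 123, 260.4 and 569 CPM with TGF-β1 and 23.0, 19.7, 85.1 and 554 CPM unstimulated. Its TNF values were far above those of both other groups, and its TGF-β1 values overlapped the unstimulated ones (-5.98 ± 0.90, adjusted p = 5.17e-06). CXCL6 had 189, 191, 315 and 444 CPM with TGF-β1 and 1383, 1229.9, 1020.3 and 1229.9 CPM with TNF (-2.09 ± 0.26, adjusted p = 7.37e-08). It was also the 1 member that TGF-β1 raised (0.89, adjusted p = 0.027), which did not pass without TGF-β1 library 3 or 4 or unstimulated library 1 or 2 (adjusted p up to 0.124). CXCL1, CXCL2 and CXCL3 were higher with TNF, at -2.97, -4.29 and -5.02, with the limit that their transcripts are closely similar and reads can be shared among them.

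Other chemokines were higher with TNF in 4 of 12 tested and with TGF-β1 in none. CCL2, the monocyte attractant MCP-1 (chr17:34255274-34257208, plus strand), measured 68.6, 85.1, 144 and 222 CPM with TGF-β1, 8779, 8707, 5966 and 6162 CPM with TNF and 204, 248, 331 and 439 CPM unstimulated. TGF-β1 libraries 1 to 3 lay below the unstimulated range, library 4 within it, and TNF far above: TGF-β1 lowered it (-1.22, adjusted p = 0.00146) and TNF raised it (4.60, adjusted p = 2.58e-16). Directly, it had the smallest adjusted p of any listed gene (-5.82 ± 0.30, adjusted p = 3.47e-19). CCL7, also a monocyte attractant (-3.84 ± 0.50, adjusted p = 2.78e-07), CCL20, which attracts CCR6-bearing lymphocytes (-3.73 ± 0.85, adjusted p = 0.00355), and the eotaxin CCL11 (-2.66 ± 0.32, adjusted p = 3.45e-08) made up the 4. Leaving out TNF library 2 added CXCL12, the homeostatic stromal chemokine, on the TGF-β1 side, where the count was otherwise 0.

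Cytokines and colony-stimulating factors were higher with TNF in 9 of 17 tested and higher with TGF-β1 in none, at a median of -3.00. IL6 was at 23.4, 18.1, 15.4 and 33.8 CPM with TGF-β1 and 164, 177, 186 and 212 CPM with TNF, and IL1B at 33.5, 30.8, 44.5 and 30.8 CPM and 351, 452, 509 and 434 CPM. Both pairs of groups were apart (-3.00 ± 0.48, adjusted p = 1.77e-05; -3.64 ± 0.64, adjusted p = 7.81e-05). IL32, a proinflammatory cytokine of immune and stromal cells, read 1.56, 9.57, 9.07 and 5.14 CPM and 292, 192, 311 and 260.3 CPM (-5.42 ± 0.54, adjusted p = 2.88e-10). IL33, an alarmin of the IL-1 family, was raised by TGF-β1 and further by TNF, with 182, 228, 284 and 476 CPM and 1546, 2069, 1806 and 2338 CPM over an unstimulated 117, 88.9, 172 and 176 CPM (-2.73 ± 0.31, adjusted p = 1.33e-08). For IL33 the TGF-β1 arm did not pass without TGF-β1 library 4 or unstimulated library 1 or 2 (adjusted p up to 0.117). TSLP, which acts on dendritic cells, had 3.90, 6.38, 0 and 20.5 CPM and 68.5, 104, 159 and 171 CPM (-3.96 ± 0.50, adjusted p = 1.4e-07). IL24 (-5.19 ± 0.90) and IL23A, the p19 chain of interleukin-23, were also among the 9. CSF2 and CSF3, the granulocyte-macrophage and granulocyte growth factors, had 3 and 1 counts in all with TGF-β1, for ratios of TNF over TGF-β1 of 37.3 (95% exact counting interval 12.5 to 183) and 34.9 (5.94 to 1410).

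NF-κB subunits and feedback genes were higher with TNF in 8 of 16 tested and higher with TGF-β1 in none, at a median of -1.70. NFKBIA, the inhibitor IκBα, was at 18.7, 38.3, 62.6 and 48.4 CPM with TGF-β1, 399, 354, 396 and 357 CPM with TNF and 21.5, 29.9, 71.1 and 56.0 CPM unstimulated. The TNF values were high and tight, and the other groups overlapped (-3.17 ± 0.27, adjusted p = 8.06e-12). TNFAIP3, the deubiquitinase A20, had 5.46, 0, 0.907 and 0.734 CPM and 62.8, 34.5, 45.8 and 65.3 CPM (-4.74 ± 0.82, adjusted p = 7.29e-05). BIRC2, TNFAIP2 and TNFAIP8 were higher with TNF, at -1.55, -2.03 and -1.72, and the subunits NFKB1 and NFKB2 were at 15.6, 10.6, 7.26 and 8.07 CPM against 29.7, 29.3, 39.0 and 36.4 CPM and at 0, 2.13, 0 and 0 CPM against 9.18, 12.1, 8.25 and 12.9 CPM. NFKB1 did not pass without TGF-β1 library 2, 3 or 4 or any 1 TNF library (adjusted p up to 0.128), nor NFKB2 without TGF-β1 library 1 or 4 (adjusted p up to 0.0571).

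**Figure D3:**
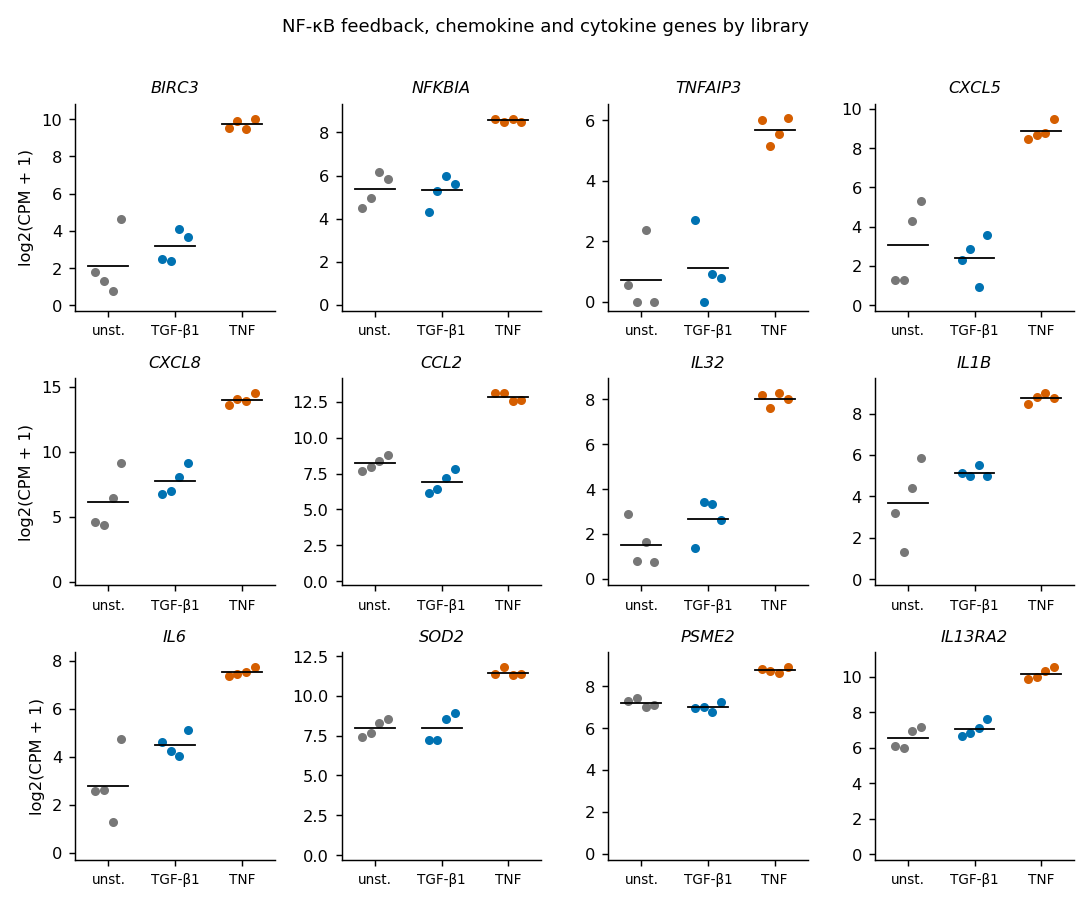
Levels of 12 NF-κB feedback, chemokine, cytokine, antioxidant, antigen-processing and receptor genes as log2(CPM + 1) on the vertical axis, for unstimulated (grey), TGF-β1 (blue) and TNF (orange) libraries; each point is 1 library, in order 1 to 4, and the bar is the mean of 4. All 4 TNF libraries lie above all TGF-β1 and unstimulated libraries in each panel.

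Of 9 leukocyte adhesion and checkpoint ligands, ICAM1 and VCAM1 were higher with TNF. ICAM1 had 3 counts in all with TGF-β1 and 153 with TNF, a ratio of 41.4 (95% exact counting interval 13.9 to 203). VCAM1 differed on the TGF-β1 arm, which lowered it to 7.02, 8.51, 11.8 and 23.5 CPM, from 73.0, 59.8, 37.3 and 43.7 CPM unstimulated and 58.6, 61.1, 42.0 and 69.6 CPM with TNF (-2.15 ± 0.34, adjusted p = 1.24e-05). MHC class I presentation was higher with TNF in 8 of 18 tested and with TGF-β1 in none, at a median of -1.08. PSME2, a subunit of the PA28 proteasome activator, was at 125, 128, 109 and 148 CPM and 454, 428, 399.9 and 477 CPM (-1.79 ± 0.15, adjusted p = 5e-12). B2M, the light chain of class I molecules, was at 2589, 2609, 2731 and 3010.3 CPM and 3953, 4112, 4509 and 5287 CPM, a small and regular difference (-0.71 ± 0.13, adjusted p = 0.000102). HLA-B, PSME1, PSMB9, TAPBP, TAP2 and ERAP2 were the other 6, with log2 fold changes from -0.95 to -3.08. TAP2, a peptide transporter chain, did not pass without TGF-β1 library 1, 2 or 3 or TNF library 2 or 4 (adjusted p up to 0.117), nor ERAP2, a peptide-trimming enzyme, without TNF library 4 (adjusted p = 0.0557).

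Cytokine receptors were higher with TNF in 4 of 12. IL13RA2, the decoy receptor of interleukin-13, had 99.8, 113, 136 and 198 CPM with TGF-β1 and 931, 1017, 1263 and 1474 CPM with TNF (-3.09 ± 0.45, adjusted p = 2.7e-06). The interferon receptor chains IFNAR1, IFNAR2 and IFNGR2 followed, at -0.92, -2.57 and -1.20, of which IFNGR2 did not pass without TGF-β1 library 1, 2 or 4 or TNF library 2 or 3 (adjusted p up to 0.122). SOD2, mitochondrial superoxide dismutase, went from 150.5, 148, 377 and 477 CPM with TGF-β1 to 2612, 3520.0, 2549 and 2601 CPM with TNF (-3.29 ± 0.29, adjusted p = 1.44e-11), and PTGS2 and PTGES, the inducible enzymes of prostaglandin E2 synthesis, were higher with TNF, at -2.51 and -2.35. NOX4, a hydrogen peroxide-producing oxidase, was the 1 of 11 prostaglandin and redox genes higher with TGF-β1: 65.5, 60.6, 55.4 and 53.6 CPM, with 7.77, 6.03, 6.0 and 10.2 CPM in TNF and 10.8, 3.65, 12.7 and 15.0 CPM unstimulated. TGF-β1 raised NOX4, and its TNF values overlapped the unstimulated ones (2.94 ± 0.58, adjusted p = 0.00049). Complement genes were higher with TNF in 3 of 11, including CFB, a protease of the alternative pathway, and C3, the central component. CFB had 3 counts and C3 none with TGF-β1, and neither passed without TGF-β1 library 1 or 3, when the count was 1 (adjusted p up to 0.0707 and 0.0593; for C3 also without TGF-β1 library 4). On the TGF-β1 side the count was 0, and 1 (CFD) without TNF library 3.

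Lists of cell states that the study described in tissue were counted the same way, and were chosen with earlier results of these data known. The paper had picked TNF for its cytokine mix because it induced markers of the inflammatory fibroblast state. The count for that state is therefore not independent. Of 13 markers of the inflammatory fibroblast state tested here, 8 were higher with TNF and none with TGF-β1, and these 8 were 6 CXC chemokines already described together with MMP1 and MMP3. Its other members FAP, THY1, PDPN, IL11 and COL7A1 did not pass, with log2 fold changes between -0.46 and 0.61. Of 11 transcription factors of that state, FOSL1, an AP-1 subunit (-1.94 ± 0.40, adjusted p = 0.000689), and ETS1 (-3.25 ± 0.76, adjusted p = 0.00342) were higher with TNF. Of 7 contractile stroma markers, ACTA2 was higher with TGF-β1 and GREM1, a BMP antagonist, higher with TNF (182, 202, 201 and 183 CPM against 412, 258, 374 and 309 CPM; -0.82 ± 0.18, adjusted p = 0.00156). Without TGF-β1 library 4, MYLK, myosin light chain kinase, made the first count 2.

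**Figure D4:**
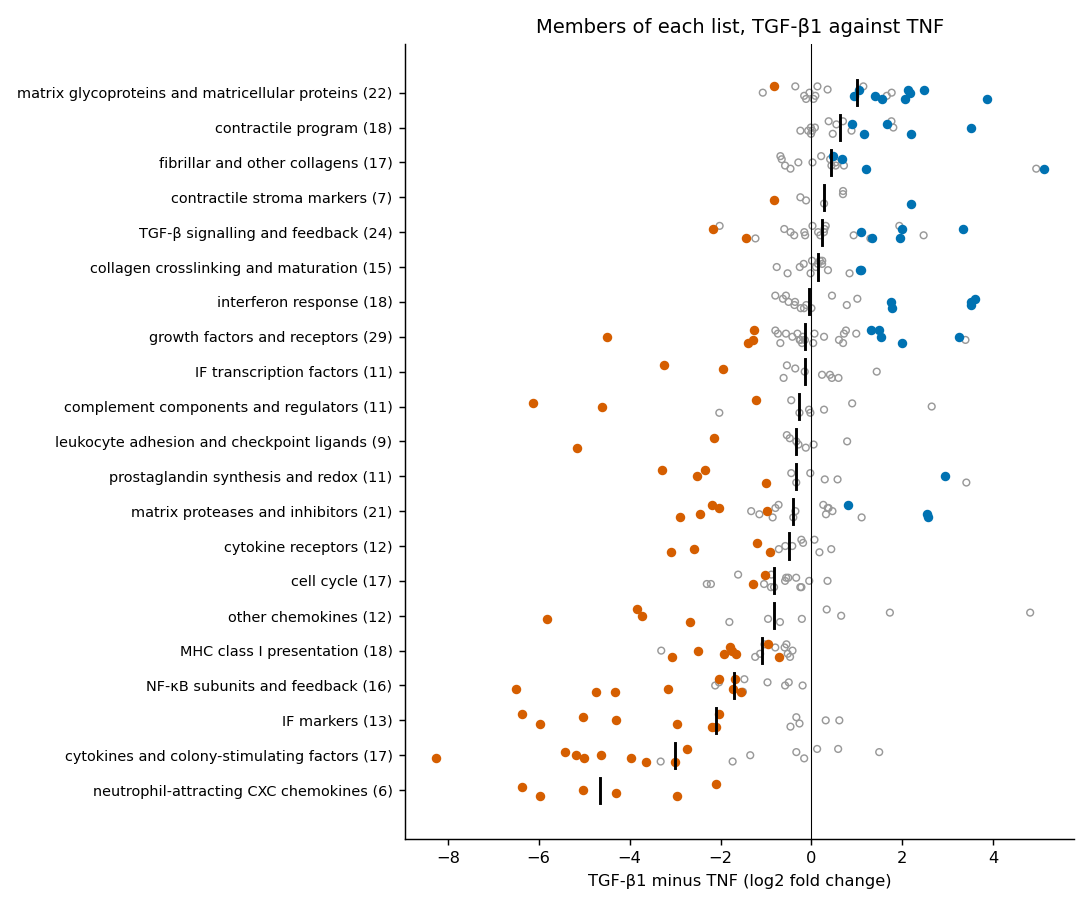
Log2 fold change of TGF-β1 minus TNF for the tested members of 21 gene lists (number tested in brackets), ordered by the median, shown as a black bar. Filled points passed an adjusted p of 0.05, blue where higher with TGF-β1 and orange where higher with TNF, and open grey points did not; IF stands for the inflammatory fibroblast state. The medians run from -4.66 for neutrophil-attracting CXC chemokines to 0.99 for matrix glycoproteins.

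Where a list had none passing in 1 direction by edgeR, the count at an unadjusted p under 0.05 was 0 for most. It was 1 for collagens and interferon-response genes on the TNF side and for adhesion and complement genes on the TGF-β1 side, and 2 for other chemokines on the TGF-β1 side. DESeq2's Wald test passed none in any of these directions, except 2 of the other chemokines on the TGF-β1 side. Fitted on the 8 libraries alone, with fewer libraries to estimate the spread, the counts on the TGF-β1 side were 1 for collagens, 1 for crosslinking enzymes and 2 for interferon-response genes, and those on the TNF side 2 for growth factors, 2 for complement genes and 1 for transcription factors of the inflammatory state. The TGF-β1 and unstimulated libraries were likewise fitted alone, without those of TNF. There the TGF-β1 arms of CCL2, CXCL6, FN1, IL33, LUM, RAB27B, SMAD3, TGFBR1 and TIMP3 did not pass (adjusted p of 0.0582 to 0.181). By DESeq2's Wald test, CCL20 did not pass (adjusted p = 0.311) and 5 cell cycle genes were higher with TNF.

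Matrix proteases were divided. Of 21 proteases and inhibitors, 3 were higher with TGF-β1 and 5 with TNF. ADAM19, a membrane metalloprotease, measured 975, 893, 742 and 854 CPM with TGF-β1, 163, 152, 142 and 139 CPM with TNF and 394, 464, 311 and 279 CPM unstimulated. TGF-β1 raised it and TNF lowered it, and no values overlapped (2.54 ± 0.18, adjusted p = 2.13e-14). TIMP3, a matrix-bound protease inhibitor, also rose with TGF-β1 and fell with TNF, at 698, 697, 391 and 341 CPM and 122, 67.2, 94.5 and 77.1 CPM (2.56 ± 0.34, adjusted p = 3.41e-07), and TIMP2 was the third (0.80 ± 0.21), which did not pass without TGF-β1 library 2 or TNF library 2 or 4 (adjusted p up to 0.0747). The TGF-β1 arm of TIMP3 did not pass without TGF-β1 library 1 or 2 or unstimulated library 2, 3 or 4 (adjusted p up to 0.12). PLAU, urokinase, went the opposite way, with 71.0, 79.8, 67.1 and 68.2 CPM with TGF-β1, 336, 357, 435 and 426 CPM with TNF and 173, 105, 134 and 124 CPM unstimulated (-2.44 ± 0.23, adjusted p = 6.18e-11). MMP1, interstitial collagenase, was raised by both and further by TNF, with 1443, 1507, 1733 and 1431 CPM, 5087, 5534, 7354 and 7238 CPM and 526, 445, 604 and 616 CPM in that order (-2.04 ± 0.26, adjusted p = 1.43e-07). MMP12, macrophage elastase, was raised by TNF (-2.89 ± 0.50, adjusted p = 5.47e-05), and ADAMTS1 was lowered by both, further by TGF-β1 (-0.99 ± 0.20, adjusted p = 0.00052).

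Among 17 cell cycle genes, CCNE2, cyclin E2 (-1.28 ± 0.27, adjusted p = 0.00101), and RRM2, a ribonucleotide reductase subunit (-1.03 ± 0.22, adjusted p = 0.00127), were higher with TNF. Without TNF library 3 the count was 5, with CCNB2, PCNA and TOP2A added. Against unstimulated libraries, TGF-β1 had 5 of the 17 lower and 0 higher at an adjusted p under 0.05, where 3.08% of all genes were lower. TNF had 0 higher and 0 lower by that threshold.

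Interferon-response genes were the exception to the inflammatory side: of 18 tested, 5 were higher with TGF-β1 and none with TNF, at a median log2 fold change of -0.057. IFIT2, an antiviral RNA-binding protein, was at 2.34, 76.6, 57.2 and 62.4 CPM in TGF-β1 libraries 1 to 4 and 0.706, 10.3, 4.50 and 2.68 CPM in TNF libraries 1 to 4, with 8.81, 10.9, 4.93 and 6.15 CPM unstimulated. TGF-β1 libraries 2 to 4 were high and library 1 fell within the TNF range (3.51 ± 0.63, adjusted p = 0.000126). IFI44L read 3.90, 9.57, 11.8 and 51.4 CPM and 1.41, 0.861, 1.5 and 2.14 CPM (3.61 ± 0.75, adjusted p = 0.00101), and IFIT1, of the IFIT2 family, 22.6, 138, 93.5 and 243 CPM and 36.0, 43.1, 45.8 and 22.5 CPM (1.77 ± 0.46, adjusted p = 0.0105). IFIT3, also of that family, read 5.46, 77.6, 111 and 136 CPM and 28.2, 14.6, 26.3 and 27.9 CPM (1.75 ± 0.45, adjusted p = 0.00904). OAS1, which activates RNase L, had 30 counts with TGF-β1 and 3 with TNF, a ratio of 12.3 (95% exact counting interval 3.83 to 63.1), at 0, 20.2, 6.35 and 2.94 CPM in TGF-β1 libraries 1 to 4. Library 1 was thus the lowest in all 5, and library 4 the highest in IFI44L, IFIT1 and IFIT3. Without TGF-β1 library 4 the count was 2, as IFI44L (2.35, adjusted p = 0.0739), IFIT1 (1.2, adjusted p = 0.137) and IFIT3 (1.38, adjusted p = 0.075) no longer passed. IFIT1 did not pass without TNF library 4 either, and OAS1 did not without TGF-β1 library 2 or TNF library 2 or 3 (adjusted p up to 0.216). Against unstimulated libraries, TGF-β1 raised IFIT2, IFI44L, IFIT3 and OAS1 (adjusted p of 0.000111 to 0.0022). For IFIT1 that arm did not pass (0.81, adjusted p = 0.323). RSAD2, the antiviral enzyme viperin, had 0, 9.57, 8.17 and 10.3 CPM with TGF-β1 and no count in the TNF or unstimulated libraries. These levels were low beside the IFNA-stimulated group, whose means were 1052 CPM for IFI44L, 4062 CPM for IFIT2 and 742 CPM for RSAD2. Whether something particular to single TGF-β1 libraries played a part in these values was not tested.

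Genes moved alike were counted on the 2 arms, which share the unstimulated controls, so the counts describe and do not test an overlap. Raised by both were 20 genes, 32.8% of those raised by TGF-β1 and 11.4% of those raised by TNF. Without unstimulated library 1 there were 31. For 6 of the 20, the means of all 8 other cytokine groups were also above the unstimulated mean. The median was 7 of the 8 groups per gene. Of the 20, 17 were not called between the cytokines and 3 were called higher with TNF: MMP3, the histone gene H2AC19 and OR2I1P. IL11, the fibroblast-activating interleukin-11 (chr19:55364382-55370463, minus strand), went from 6.86, 6.56, 4.93 and 7.51 CPM unstimulated to 132, 48.9, 113 and 83.7 CPM with TGF-β1 and 85.4, 95.6, 152 and 142 CPM with TNF. Its stimulated groups overlapped, with log2 fold changes from baseline of 3.85 and 4.18 (direct difference -0.33 ± 0.39, adjusted p = 0.775). MMP10, stromelysin-2 (chr11:102770502-102780628, minus strand), went from 131, 94.0, 175 and 259.6 CPM to 1738, 1779, 2651 and 2398 CPM and 2294, 2549, 4503 and 4796 CPM. It rose by 3.70 and 4.42, and the direct difference did not pass (adjusted p = 0.264). MMP3, stromelysin-1, rose under both but further with TNF, from 649, 499, 534 and 861 CPM to 2368, 2794, 3047 and 3086 CPM and 11117, 8335, 15275 and 16772 CPM (-2.19 ± 0.33, adjusted p = 4.16e-06).

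The leading pair among genes raised by both, CXCL10 and OR2I1P, were uneven between TGF-β1 libraries. CXCL10, an attractant of CXCR3-bearing T cells, was at 0, 0, 2.81 and 6.15 CPM unstimulated, 3.12, 74.4, 91.6 and 165 CPM with TGF-β1 and 145, 158, 113 and 233 CPM with TNF. Library 1 of TGF-β1 was again near the unstimulated range (5.27 against unstimulated, adjusted p = 6.92e-06; 6.22 for TNF), and the direct difference was -0.95 ± 0.50 (adjusted p = 0.346). CXCL11, of the same family, was raised by 5.38 and 4.72, with 0, 52.1, 24.5 and 96.1 CPM and 15.5, 20.7, 4.50 and 64.8 CPM. IFNA-stimulated means were 6319 CPM for CXCL10 and 3879.8 CPM for CXCL11. OR2I1P, an olfactory receptor gene that the annotation types as protein coding and that overlaps the ubiquitin-like gene UBD on the opposite strand (chr6:29550407-29557773, plus strand), had counts in TGF-β1 library 4 alone (0, 0, 0 and 10.3 CPM) and in all TNF libraries (20.5, 31.9, 36.8 and 50.9 CPM). It was not raised by TGF-β1 without that library (0.00, adjusted p = 1) nor without any 1 unstimulated library (adjusted p up to 1 over the 5). With no strand information its reads cannot be assigned between the 2 genes. The rest of the 20 were AREG, BOLA2, CDK2AP2, COL8A1, DDX10, GK, IER3, IFI6, INHBA, ISG20, POPDC3, STEAP1 and TNFAIP6. IFI6, an interferon-induced gene, was raised by TGF-β1 by 2.24 (adjusted p = 0.0165), and did not pass without TGF-β1 library 4 (1.46, adjusted p = 0.144). Without any 1 library, between 14 and 20 of the 20 were still raised by both, the fewest without unstimulated library 1.

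Lowered by both were 36 genes, 35.6% of those lowered by TGF-β1 and 16.1% of those lowered by TNF, and none of the 36 passed between the cytokines at an adjusted p under 0.05 by edgeR, with 2 at an unadjusted p under 0.05 and 1 passing by DESeq2's Wald test. ALDH1A1, a retinaldehyde dehydrogenase, went from 89.6, 178, 55.6 and 39.6 CPM unstimulated to 10.9, 7.44, 2.72 and 6.60 CPM with TGF-β1 and 5.65, 11.2, 1.5 and 0.536 CPM with TNF. Both groups were below the baseline and overlapped each other (from baseline -3.68 and -4.36). FGL2, a fibrinogen-like immunoregulatory protein, went from 114, 142, 85.1 and 87.4 CPM to 21.1, 9.57, 4.54 and 9.54 CPM and 15.5, 10.3, 6.75 and 4.29 CPM (-3.22 and -3.56). SHISA3, an inhibitor of WNT and FGF signalling, went from 32.8, 32.8, 51.4 and 38.9 CPM to 4.68, 5.32, 2.72 and 4.40 CPM and 2.82, 1.72, 1.5 and 0 CPM (-3.16 and -4.70). Its means in all 8 other cytokine groups were also below the unstimulated mean, as were those of 5 of the 36 genes in all, with a median of 6 of the 8 groups per gene. ADH1B, an alcohol dehydrogenase, had 109 counts unstimulated and 2 with TNF, a ratio of 49.98 (95% exact counting interval 13.5 to 418), and counts in 1 of 4 TGF-β1 libraries. SLC7A14, a lysosomal membrane protein, was the fifth by rank. A test that passes no gene here does not show equal levels: the direct difference was 1.53 ± 0.68 for SHISA3 and 0.68 ± 0.64 for ALDH1A1.

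Moved oppositely by both thresholds were 3 genes, MGP and PLN up with TGF-β1 and down with TNF, and RAB27B the reverse. Without TGF-β1 library 1 none of these 3 remained and 1 other gene was counted. Without unstimulated library 1 the count was 2, both among the 3, and without unstimulated library 2 it was 2, of which 1 was among the 3. Without TGF-β1 library 4 or TNF library 1 it was 6, the 3 included. PLN, phospholamban, the regulator of the sarcoplasmic calcium pump (chr6:118548296-118561716, plus strand), was at 9.30, 10.9, 9.85 and 10.2 CPM unstimulated, 68.6, 40.4, 49.0 and 42.6 CPM with TGF-β1 and 1.41, 0, 0 and 0 CPM with TNF. The 3 groups did not overlap, and 238 counts with TGF-β1 stood against 2 with TNF, a ratio of 147 (95% exact counting interval 40.2 to 1218). RAB27B, a GTPase of vesicle secretion (chr18:54717860-54895516, plus strand), was at 10.8, 22.6, 16.2 and 10.9 CPM unstimulated, 0.78, 3.19, 5.44 and 6.60 CPM with TGF-β1 and 55.1, 65.5, 72.02 and 74.5 CPM with TNF (-4.02 ± 0.53, adjusted p = 3.03e-07). Again the groups were in order without overlap, with TGF-β1 lowest. The TGF-β1 arm of RAB27B (-1.87, adjusted p = 0.0301) did not pass without TGF-β1 library 1, 2 or 3 or unstimulated library 2 or 3 (adjusted p up to 0.142), nor that of PLN without TGF-β1 library 1 (adjusted p = 0.0547). The TGF-β1 arm of MGP was below the 1.5 threshold without TGF-β1 library 1 or unstimulated library 1 or 2, at the lowest 1.38, with an adjusted p of at most 0.0346 over the libraries left out. Over the other 8 cytokines, mean MGP ran from 1.98 CPM with IL1B to 76.5 CPM with OSM, mean PLN from 0.217 CPM with IFNG to 13.0 CPM with IL6, and mean RAB27B from 0.655 CPM with IL13 to 58.8 CPM with IL1B.

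At an adjusted p under 0.05 alone, 23 genes moved oppositely. Up with TGF-β1 and down with TNF were 17, including ADAM19, AHCYL1, ANOS1, FN1, IGFBP3, LXN, MGP, MIR4435-2HG, PLN, POSTN, RGS2, S1PR1, TGFBI, TGFBR1, TIMP3 and VCAN. All 17 also passed as higher with TGF-β1 directly, which is not separate evidence. The direct difference is the TGF-β1 arm minus the TNF arm of the same fit, so its direction was fixed by the choice of these genes. LXN, the carboxypeptidase inhibitor latexin, was at 548, 681, 849 and 799.9 CPM unstimulated, 1139, 1024, 1103 and 1041 CPM with TGF-β1 and 299, 227, 227 and 197 CPM with TNF. RGS2, which limits G protein signalling, ran at 81.8, 82.4, 102 and 88.1 CPM, 168, 196, 185 and 220.2 CPM and 42.4, 22.4, 29.3 and 33.2 CPM in the same order. Down with TGF-β1 and up with TNF were 6: BEST1, CCL2, CEMIP, PLAU, RAB27B and TNFAIP8. All 6 were higher with TNF directly, a direction fixed in the same way. CEMIP, a hyaluronan-degrading protein, was at 56.8, 72.2, 59.1 and 80.6 CPM unstimulated, 13.3, 8.51, 49.0 and 53.6 CPM with TGF-β1 and 123, 159, 131 and 155 CPM with TNF. Its TGF-β1 libraries 1 and 2 were the lowest of all. By the same threshold 112 genes were raised by both, of which 4 were higher with TGF-β1 and 9 with TNF directly, and 130 were lowered by both, of which 10 were higher with TGF-β1 and 1 with TNF.

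**Figure D5:**
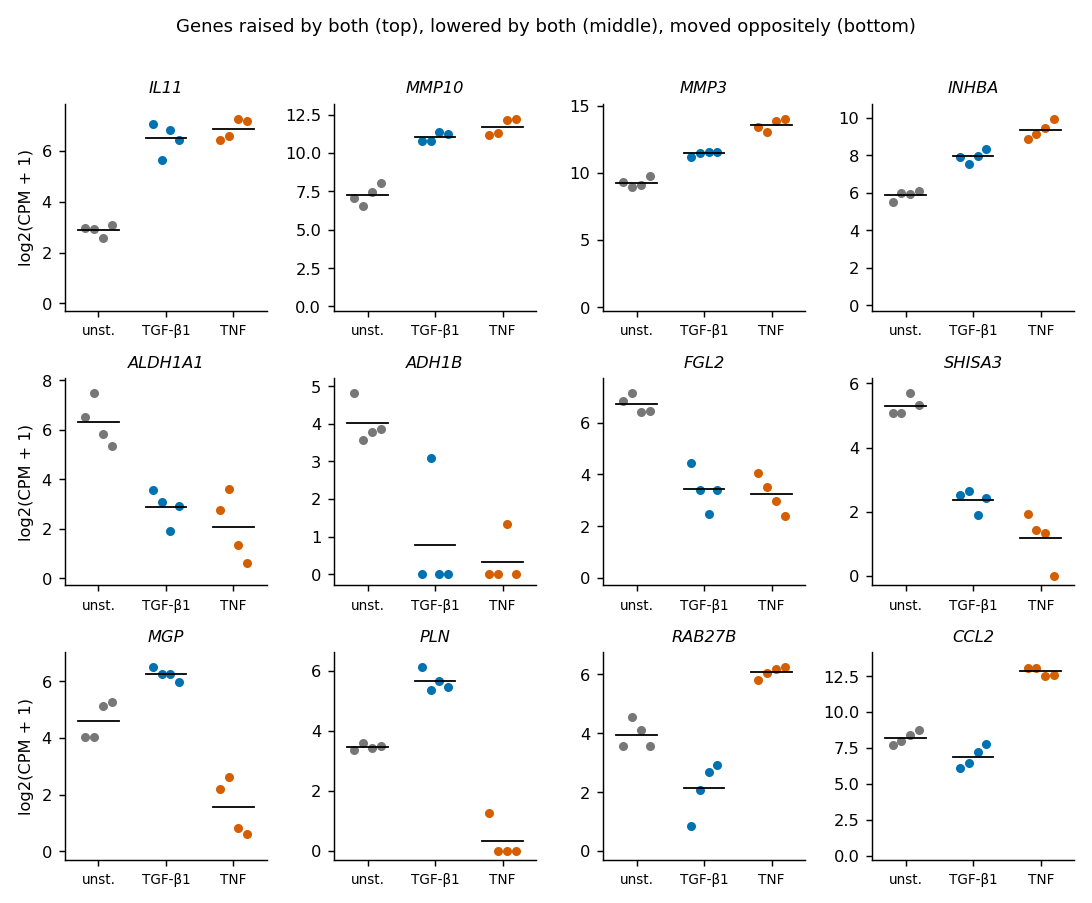
Levels as log2(CPM + 1) on the vertical axis for genes raised by both cytokines (top), lowered by both (middle) and moved oppositely (bottom), in unstimulated (grey), TGF-β1 (blue) and TNF (orange) libraries; each point is 1 library and the bar is the mean of 4. IL11 and MMP10 overlap between the cytokines while MMP3 and INHBA are higher with TNF, the 4 genes of the middle row fall under both, and in the bottom row unstimulated means lie between the TGF-β1 and TNF means (CCL2 by the adjusted p alone).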

How the data were processed

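The deposited table held estimated counts per gene symbol for 44 bulk RNA-seq libraries, which the authors made with kallisto. The submitters' processing notes name FastQC 0.11.9, kallisto 0.48.0, MultiQC 1.14 and hg38. The transcriptome release and the strandedness are not given in the sources used here. As 5.73% of the values were not whole, they were rounded. Groups were taken from the library titles. Nothing in the labels says that the 4 libraries of a group came from separate cultures, so the p-values measure the spread between these libraries, which may be technical. No 2 of the 18 replicate pairs examined were identical (lowest chi-square per degree of freedom 3.69).

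Library sizes were scaled by TMM, genes were filtered by filterByExpr over the 11 groups, and edgeR 4.0.16 in R 4.3.3 fitted its quasi-likelihood model with 1 coefficient per group to all 44 libraries (common biological coefficient of variation 0.331). TGFB1 was tested against TNF, and each against unstimulated, with Benjamini-Hochberg adjustment over the 9513 genes tested. Calls required both an adjusted p under 0.05 and a change of more than 1.5 on the log2 scale, up or down, while members of gene lists were counted by the adjusted p alone. The code was tested on simulated data. Totals ran from 742173 to 2213424 counts per library over the series, and exact intervals for ratios of counts, like the floor of 3 counts, cover counting error only.

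The comparison and the gene lists were chosen with earlier results of these data known. Genes are named where they belong to a list; where they were among the 10 called genes of largest change in each direction, with groups that do not overlap, a mean log2 CPM of at least 1 and more than 3 counts in each group; where they were among the 3 of highest mean among called genes at 0 in the other group; or where they ranked among the first 5 raised by both, the first 5 lowered by both or the first 10 moved oppositely, by the smaller of their absolute changes. Other genes named (LXN, RGS2, CEMIP, KRT18, RSAD2 beside IFNA values, and the members of sets printed in full) were chosen after their values were seen. Coordinates are from GENCODE release 44 on GRCh38, where 457 of 457 symbols matched, and promoter windows from RefSeq.

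Alternatives were DESeq2's size factors, the Wald test of DESeq2 1.42.0, a looser filter (every gene with a count), a stricter one (10 counts in 4 or more libraries), a fit on the compared groups alone, a block for the replicate number, other fold thresholds and each library left out. Counts of the lists under these alternatives, and interferon genes without each TGF-β1 library, were added after the data were seen. Results for some items are not reported here.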

Additional observations from a re-analysis of the deposited data

Results flagged for a closer look

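A library was singled out where its gap to the nearest of its group took a larger share of the group's range than Dixon's 95% limit for 4 libraries allows. That held for 19 of 253 groups of 4 values (7.51%). The limit passes about 1 in 20 groups of normally distributed values, which CPM of genes with few counts need not be. Where only 1 library of a group had counts, the share was 1 however few they were. The percentage therefore does not show an excess over chance.

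Among TGF-β1 libraries, the gap was 0.897 of the range for ADAMTS1, low in library 1 at 43.7 CPM against 57.2 to 58.7 CPM, and 0.966 for IGF1, low in library 4 at 188 CPM. COL6A3 was high in library 2 (0.92, at 513 CPM against 413 to 421 CPM), CXCL3 high in library 3 (0.835), IFI44L high in library 4 (0.834, at 51.4 CPM) and TNFAIP3 high in library 1 (0.834). ADH1B and NFKB2 had counts in library 2 alone, CSF2, CSF3 and ICAM1 in library 3 alone, and OR2I1P in library 4 alone, each with a share of 1. For CSF2, CSF3 and ICAM1 that was 3, 1 and 3 counts.

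Among TNF libraries, SOD2 was high in library 2 (0.936, at 3520.0 CPM against 2549 to 2612 CPM). COL6A3 was low in library 2 (0.922, at 264 CPM), IFIT3 low in library 2 (0.854, at 14.6 CPM) and TGFBR1 low in library 3 (0.874, at 75.0 CPM). ADH1B and COL11A1 had counts in library 3 alone and PLN in library 1 alone, each with a share of 1. The cause of these values was not tested.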

How the results depend on the processing

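Of 191 gene values, 148 kept their direction and side of the threshold under all alternatives run for them, 40 lost the threshold under at least 1, 3 gained it under at least 1, and none reversed. The depth of 825001 to 1815955 counts limits low genes most, since 3 counts are 1.61 to 3.19 CPM. With only the compared groups fitted, which leaves fewer libraries to estimate the spread, 76 genes were higher with TGF-β1 (120 in the 44-library fit), 51 were lowered by TGF-β1 (101) and 23 lowered by both (36), and these values no longer passed, at adjusted p of 0.0582 to 0.181: COL4A1, COL6A3, IFIT3, IFNGR2, IGF2, P4HA2, PSMB9, THBS1, TIMP2 and VEGFA directly, and the TGF-β1 arms of CCL2, CXCL6, FN1, IL33, LUM, RAB27B, SMAD3, TGFBR1 and TIMP3. The TGF-β1 arm of SCG2 passed there (adjusted p = 0.0257), and genes under the filter in those libraries gave no value. An absolute log2 fold change above 1 gave 200 higher with TGF-β1, 213 higher with TNF, 123 raised and 197 lowered by TGF-β1, 273 raised and 388 lowered by TNF, 44 raised by both, 82 lowered by both and 11 moved oppositely. Without a fold threshold these were 288, 304, 248, 293, 511, 579, 112, 130 and 23. With all genes of any count, 34 were raised by both and 6 moved oppositely, and the direct differences of CXCL10 (adjusted p = 3.68e-05) and MMP10 (adjusted p = 0.00309) passed. COL6A3, IFNGR2, IGF2, KRT18 and VEGFA directly, and both arms of TGFBR1, did not (adjusted p of 0.0573 to 0.253). DESeq2's size factors gave 5 moved oppositely and its Wald test 6. By the Wald test CCL20 (adjusted p = 0.311), OAS1 (adjusted p = 0.0652) and RSAD2 (adjusted p = 0.213) did not pass directly. Apart from the compared-groups fit, the cause of these shifts was not tested.

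Leaving out each library in turn gave 101 to 121 genes higher with TGF-β1, 120 to 147 higher with TNF, 48 to 79 raised and 66 to 140 lowered by TGF-β1, 140 to 240 raised and 177 to 231 lowered by TNF, 16 to 31 raised by both, 25 to 45 lowered by both and 1 to 6 moved oppositely.

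Over all tested genes, same-numbered libraries of TGFB1 and TNF did not deviate together (correlations of 0.0348, -0.105, -0.0182 and 0.0665), and none correlated best with its own number. Against unstimulated libraries, 2 of 4 numbers did for each cytokine (correlations of -0.0328 to 0.167 for TGFB1 and -0.0865 to 0.0617 for TNF). As not every correlation was over 0.1, the numbers were not taken to pair the libraries. Single lists could still share an order that such correlations do not show. Summed contractile genes were higher in library 1 than in library 4 with TGFB1 (10123 against 5911 CPM) and TNF (5355 against 3612 CPM). The same held for unstimulated libraries (8269 against 5659 CPM). Summed collagens were higher in library 1 with TNF (7557 against 4512 CPM) and lower in it unstimulated (10894 against 15996 CPM). With the replicate number as a block the counts, in the order above, were 126, 149, 67, 106, 182, 231, 22, 37 and 3. The TGF-β1 arm of OR2I1P (adjusted p = 0.059) and the direct difference of IGF2 (adjusted p = 0.0504) did not pass there, and the direct difference of MMP10 did (adjusted p = 0.0381).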
